A study of Mus musculus with 6 samples.

Results

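The proteasome is the barrel-shaped protease that degrades proteins tagged with ubiquitin, and the expression of its constitutive subunits and helpers was compared between CD11c+ and CD11c- activated T cells of mouse blood. Genes were taken by name, those of the symbols Psma, Psmb, Psmc, Psmd, Psme, Psmf and Psmg followed by a number, without the immunoproteasome genes Psmb8, Psmb9 and Psmb10. This gave 44 genes of the 17097 that a probe set with a single symbol names, and the brightest probe set on average stands for each gene. Female C57BL/6 mice of 6 to 8 weeks supplied the blood, and the protocol describes females given the progestin Depo-Provera (3 mg), 5 days before euthanasia by the labels, although the study's methods state a different interval. From each of 3 mice, labelled A, C and D, CD3+ CD62L- CD44 high cells were sorted by CD11c, with 300 cells taken per fraction. RNA of both fractions was amplified over 24 cycles and hybridised to 1 array per sample, 6 in all, so that CD11c status is the only labelled difference between the groups. The labels name no knockout or transgene. In RNA from sorted cells, fewer cells of a type and less RNA per cell cannot be told apart.

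The core of the proteasome is built of outer alpha rings, which gate the entry, and inner beta rings, which hold the active sites in Psmb5, Psmb6 and Psmb7. A cap binds the core, and in it the ATPases Psmc1 to Psmc6 unfold the substrate while the Psmd subunits recognise and remove ubiquitin. Chaperones, most of them of the Psmg family, assemble the rings, and the Psme proteins form alternative caps. Lymphocytes also hold the immunoproteasome, in which Psmb8, Psmb9 and Psmb10 replace the active subunits, and both particles make peptides for MHC class I. By name the 44 genes comprised 8 of the alpha ring, 8 of the beta ring, 5 ATPases of the cap, 11 other cap subunits, 6 assembly chaperones, and 3 activators with the inhibitor Psmf1. The other 2, Psmc3ip and Psme3ip1, share the name but are no subunits. No probe set with a single symbol named Psmc6, Psmd10, Psme4 or Psme2b here.

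Expression values are log2 signals, and a log2 fold change is the value in CD11c+ minus that in CD11c- cells, so that a change of 1 is a doubling. The background level was set at 5.98 log2, below which lay 95% of 38 genes typical of unrelated tissues. Of the 44 genes, 39 had a mean over the 6 arrays above it. The remaining 5 were Psma8, a subunit known from testis, Psmb11, known from the thymic cortex, the chaperones Psmd9 and Psmg3, and Psmc3ip, a factor of meiotic recombination. The 39 genes ran from a mean of 6.48 for Psmd12 to one of 9.97 for Psme3, which are levels of different probe sets and give no ratio between subunits.

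The samples behaved as labelled for the sorting antigen, with Itgax, which encodes CD11c, at 8.97 ± 0.074 (SD, n = 3) in the CD11c+ and 4.60 ± 1.05 in the CD11c- fraction. Markers of T cells were above background in both fractions for 8 of 8 genes, with mean log2 levels of 10.21 to 10.25 in CD11c- and 9.16 to 9.49 in CD11c+ samples. Markers of other cells, which the T cell label does not cover, moved with CD11c. Of 7 basophil genes 0 were above background in CD11c- and 7 in CD11c+ cells, with mean levels of 3.68 to 3.82 and 8.11 to 9.03, and of 7 monocyte and macrophage genes 0 and 5, with 4.18 to 4.32 and 7.14 to 7.70. For B cells the counts were 1 and 3 of 4, for dendritic cells 0 and 2 of 5 and for NK cells 2 and 2 of 4, for erythroid cells and platelets 1 and 1 of 4, and no neutrophil gene of 3 was above background. At an adjusted p under 0.05 in limma, 7 of 7 basophil and 4 of 7 monocyte and macrophage genes were higher and 2 of 8 T cell genes lower. Of the 4 NK genes, Eomes and Klrd1 were higher by 2.06 and 1.59, and Klrb1c was lower, with -1.30 (adjusted p = 0.042). Klrb1c was above background in CD11c- cells alone and Eomes in CD11c+ cells alone. For B cells (Pax5), dendritic cells (Cd209a) and platelets (Itga2b), 1 gene each was higher. The part of these cell types in the members' values was not tested. As a sign of RNA quality, the 3′ minus 5′ difference of the Gapdh control ran from -0.49 to -0.45 in CD11c- and from -0.59 to -0.34 in CD11c+ samples, and overlapped.

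None of the 44 genes passed the test of CD11c+ against CD11c- cells. In limma with the mouse as a block, 0 were higher and 0 lower at a Benjamini-Hochberg adjusted p under 0.05, where 0.957% of all 45141 probe sets were higher and 0.168% lower, or 1.13% in either direction. Of the 39 members above background 0 passed, beside 2.2% higher and 0.451% lower of the probe sets above background, 2.65% in all, and the lowest adjusted p was 0.157, that of Psmf1. At an unadjusted p under 0.05, 1 member was higher and 4 were lower, where 6.28% of all probe sets were higher and 7.21% lower. The 4 lower genes, Psmf1, Psma3, Psmc3 and Psmg1, were among the 39 above background, where 14.2% of the probe sets were lower. No member had a log2 fold change over 1 in size, where 5.19% of all probe sets and 9.37% of those above background did, the highest of them 8.91. The log2 fold change was below 0 for 32 of 44 members and 66.9% of all probe sets, and for 29 of 39 and 59.1% of those above background. The median log2 fold change of the members was -0.10, beside -0.09 over all probe sets, and their values ran from -0.69 to 0.60. For the 39 members above background the median was -0.17, beside -0.09 over all probe sets above background, a difference that was not tested.

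A missed threshold does not show that the fractions are alike, so the intervals matter here. For 33 of the 44 genes the 95% confidence interval of the log2 fold change lay within 1 of 0, short of a doubling in either direction, and 74.2% of all probe sets met the same limit. Among genes above background it was 28 of 39, beside 60.7% of all probe sets above background. The 11 genes with intervals past 1 were Psma6, Psmb7, Psmc3, Psmd1, Psmd6, Psmd12, Psmd13, Psmd5, Psmg1, Psmg2 and Psmf1. Of these, 9 extended past -1 alone, while Psmb7 and Psmd13 extended past 1.

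**Figure D1:**
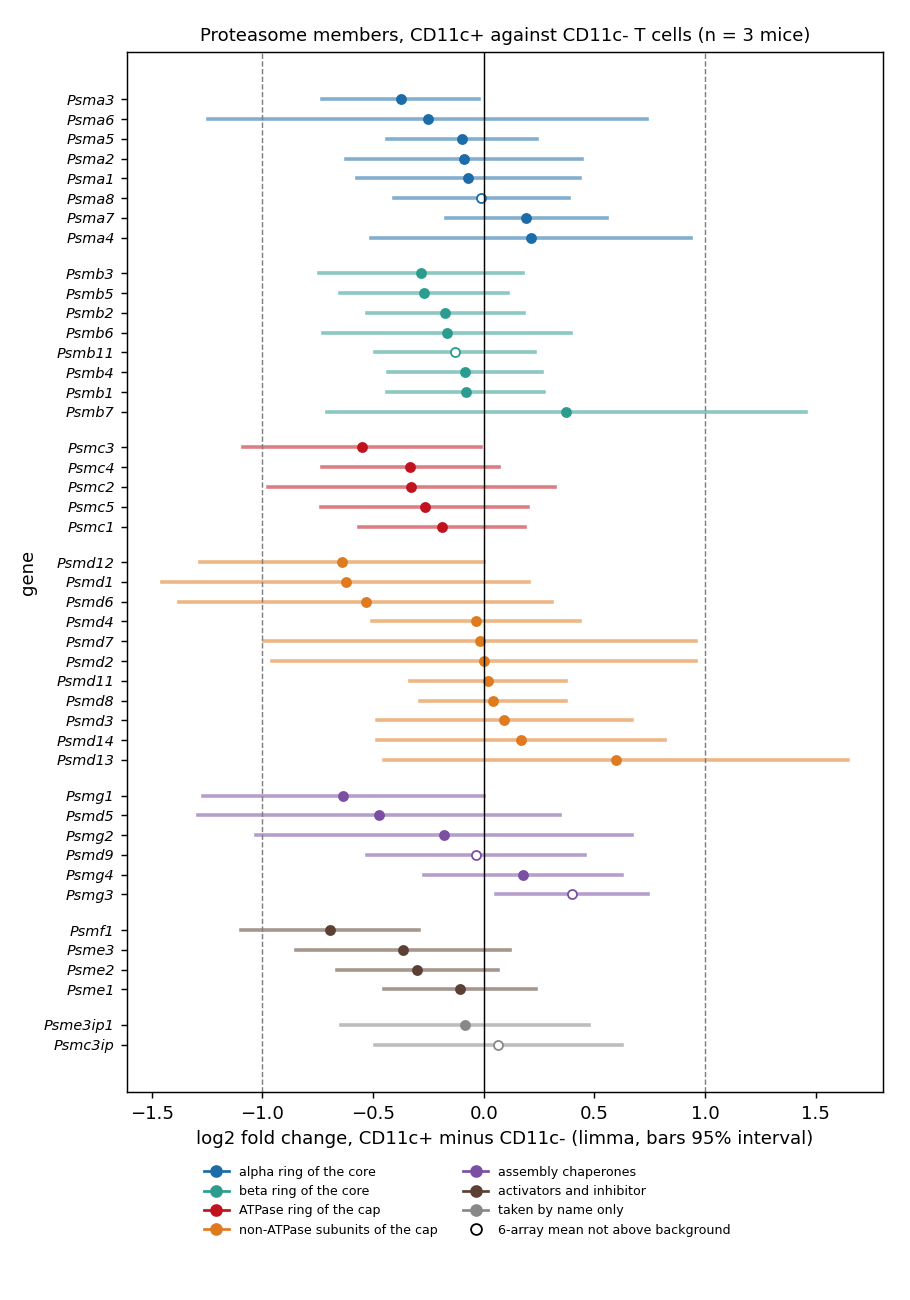
Log2 fold change (horizontal axis, CD11c+ minus CD11c-) of each of the 44 genes (vertical axis), grouped by role in colour, with bars for the 95% interval from limma over 3 mice and open circles for the 5 genes with a mean not above background. All points lie between -0.69 and 0.60, and 33 of 44 bars stay within the dashed lines at -1 and 1.

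The subunits that carry the active sites had log2 fold changes between -0.27 and 0.37. Psmb5, the subunit that cuts after hydrophobic residues, had log2 values of 8.94, 8.17 and 8.28 in the CD11c- and 8.48, 8.06 and 8.05 in the CD11c+ samples of mice A, C and D. It was lower in CD11c+ cells in 3 of 3 mice, with overlapping groups and a log2 fold change of -0.27 (95% interval -0.65 to 0.11, adjusted p = 0.531). Psmb6, which cuts after acidic residues, had values of 8.89, 8.29 and 8.82 in the CD11c- and 8.72, 8.57 and 8.22 in the CD11c+ samples of mice A, C and D. Mouse C went the other way from A and D, and the log2 fold change was -0.17 (95% interval -0.73 to 0.40, adjusted p = 0.787). Psmb7, which cuts after basic residues, had values of 6.89, 7.07 and 7.89 in the CD11c- and 7.86, 8.00 and 7.11 in the CD11c+ samples of mice A, C and D. Its groups overlapped, since mice A and C were higher by 0.97 and 0.93 and mouse D lower in CD11c+ cells, and the log2 fold change of 0.37 (95% interval -0.71 to 1.46, adjusted p = 0.753) had an interval that reaches past a doubling.

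The promoter of Psmb5 is shown with that of Psmd12, the cap subunit with the lowest value of its group, because both hold the letters TGACNNNGC, the core of the antioxidant response element through which factors such as Nfe2l1 and Nfe2l2 act on subunit genes. Each window is the 250 bases before the start of the gene, 5′ to 3′ along the gene, from RefSeq on GRCm38.p6, and capitals mark TGACNNNGC and, in Psmd12, the ETS core CCGGAAG, each on either strand.
Psmb5 (chr14:54617996-54618245, minus strand): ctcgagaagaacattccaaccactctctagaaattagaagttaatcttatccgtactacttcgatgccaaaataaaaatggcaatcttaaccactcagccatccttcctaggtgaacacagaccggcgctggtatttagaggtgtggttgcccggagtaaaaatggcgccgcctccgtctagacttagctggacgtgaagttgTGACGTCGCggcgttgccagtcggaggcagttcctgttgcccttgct
Psmd12 (chr11:107479278-107479527, plus strand): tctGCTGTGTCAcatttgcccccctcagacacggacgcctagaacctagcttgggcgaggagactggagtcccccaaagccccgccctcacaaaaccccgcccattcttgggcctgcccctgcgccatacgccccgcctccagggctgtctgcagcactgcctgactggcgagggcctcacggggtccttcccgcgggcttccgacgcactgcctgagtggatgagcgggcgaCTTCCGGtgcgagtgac
In Psmb5 the element lies 47 to 39 bases before the start. In Psmd12 it lies 247 to 239 bases before it on the opposite strand, and the ETS core 17 to 11 bases before it, also on the opposite strand. Windows were found for 36 of the 44 genes. Of these 36, 11.1% held TGACNNNGC, beside 11.5% of 27025 genes of the table, the 4 being Psmb5, Psmb6, Psmd12 and Psmd9. CCGGAAG stood in 30.6% of the members and 7.83% of all genes, CCAAT in 38.9% and 37.5%, and TATAAA in 8.33% and 14.3%. The motif of NRF1, here the nuclear respiratory factor and not Nfe2l1, differs from TGACNNNGC. It stood in 16.7% of the members and 5.64% of all genes. These shares describe letters in a window, were not tested, and say nothing of binding.

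The 8 genes of the alpha ring had a median log2 fold change of -0.08, with 7 of 8 intervals within 1 of 0. Psma3 had log2 values of 9.02, 8.93 and 9.28 in the CD11c- and 8.71, 8.64 and 8.76 in the CD11c+ samples of mice A, C and D. All 3 CD11c+ values lay below all 3 CD11c- values, yet the log2 fold change of -0.38 (95% interval -0.73 to -0.02, adjusted p = 0.347) did not pass the test. Psma7 went the opposite way without overlap, with 9.32, 9.33 and 9.48 in the CD11c- and 9.64, 9.57 and 9.50 in the CD11c+ samples of mice A, C and D, and a log2 fold change of 0.19 (95% interval -0.17 to 0.56, adjusted p = 0.642). Its other probe set, also above background, had 0.075 (adjusted p = 0.841), with overlapping groups and mouse C lower in CD11c+ cells. Groups without overlap, lower in CD11c+ cells, were seen for 7 members and for 12.5% of all probe sets, and higher for 1 member and 6.4%. Psma4 had a log2 fold change of 0.21 (95% interval -0.51 to 0.94, adjusted p = 0.787), Psma6 one of -0.25 (95% interval -1.25 to 0.74, adjusted p = 0.812) and Psma5 one of -0.097 (95% interval -0.44 to 0.24, adjusted p = 0.793). Psma1 and Psma2 had -0.069 and -0.089.

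In the beta ring the median was -0.15, again with 7 of 8 intervals within 1 of 0. Psmb2, with a pooled SD of 0.0804 within the groups, had values of 9.84, 9.87 and 9.83 in the CD11c- and 9.78, 9.56 and 9.69 in the CD11c+ samples of mice A, C and D, so that the CD11c+ values were all lower, with a log2 fold change of -0.17 (95% interval -0.53 to 0.18, adjusted p = 0.664). Psmb1 had a log2 fold change of -0.081 (95% interval -0.44 to 0.27, adjusted p = 0.831), and Psmb4 one of -0.083 (95% interval -0.43 to 0.27, adjusted p = 0.824). Psmb3 had -0.28 (95% interval -0.74 to 0.18, adjusted p = 0.587) by its brightest probe set and 0.014 (adjusted p = 0.979) by its other one, which was also above background.

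The ATPase ring, which threads substrates into the core, had values below 0 for 5 of 5 genes and a median of -0.33. All 5 were above background, where 59.1% of the probe sets were below 0. Psmc3 had log2 values of 8.51, 8.59 and 8.73 in the CD11c- and 8.33, 8.13 and 7.74 in the CD11c+ samples of mice A, C and D. The groups did not overlap, and its log2 fold change of -0.55 (95% interval -1.09 to -0.011, adjusted p = 0.362) had the lowest p of the ring. The other ATPases had log2 fold changes of -0.33 for Psmc4, -0.33 for Psmc2, -0.27 for Psmc5 and -0.19 for Psmc1, with adjusted p between 0.461 and 0.657. Of the 5 genes, 2 were lower in 3 of 3 mice by the brightest probe set, Psmc3 and Psmc4, beside 27.8% of the probe sets above background.

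The other cap subunits went both ways, with a median of 0.0016, and a median SD within groups of 0.37, beside 0.21 for the alpha ring. Psmd12, a scaffold subunit of the lid, had values of 7.08, 7.34 and 5.97 in the CD11c- and 6.98, 6.67 and 4.81 in the CD11c+ samples of mice A, C and D. Mouse D was low in both fractions, and the log2 fold change was -0.64 (95% interval -1.28 to 0.0017, adjusted p = 0.372). Psmd13, another lid subunit, had 7.87, 7.92 and 6.35 in the CD11c- and 8.43, 7.58 and 7.93 in the CD11c+ samples of mice A, C and D. Its single low value was the CD11c- sample of mouse D, and the log2 fold change was 0.60 (95% interval -0.45 to 1.65, adjusted p = 0.616).

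Psmd1, a scaffold of the base, had 8.04, 7.83 and 8.52 in the CD11c- and 7.73, 7.73 and 7.05 in the CD11c+ samples of mice A, C and D. All CD11c+ values were lower, with a log2 fold change of -0.62 (95% interval -1.46 to 0.21, adjusted p = 0.51). Psmd14, the enzyme that removes ubiquitin chains from the substrate, had a log2 fold change of 0.17 (95% interval -0.48 to 0.82, adjusted p = 0.808), and Psmd4, a ubiquitin receptor, one of -0.035 (95% interval -0.51 to 0.44, adjusted p = 0.947). The other probe sets of Psmd4 had -0.45 (adjusted p = 0.69) above background and 0.23 (adjusted p = 0.571) below it. Psmd6 had -0.53 (adjusted p = 0.578) by its brightest probe set and 0.34 (adjusted p = 0.512) by the other, which was higher in 3 of 3 mice, so that its direction depends on the probe set. Psmd11 had 0.019 (95% interval -0.33 to 0.37, adjusted p = 0.962) by its brightest probe set and -0.14 (adjusted p = 0.749) and -0.34 (adjusted p = 0.609) by the other 2 above background. Psmd8 had 0.041 (95% interval -0.29 to 0.37, adjusted p = 0.912). Psmd2, Psmd3 and Psmd7 had 0.0016, 0.094 and -0.016.

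The assembly chaperones also had no common direction, with a median of -0.11 over 6 genes. Psmg1 and Psmg2 work as a pair in building the alpha ring. Psmg1 had log2 values of 6.97, 6.54 and 7.41 in the CD11c- and 6.65, 6.19 and 6.18 in the CD11c+ samples of mice A, C and D. It was lower in CD11c+ cells in 3 of 3 mice, with overlapping groups and a log2 fold change of -0.63 (95% interval -1.27 to -0.00019, adjusted p = 0.371). Psmg2 had -0.18 (95% interval -1.03 to 0.67, adjusted p = 0.844) by its brightest probe set and 1.03 (adjusted p = 0.353) by the other, whose mean was not above background.

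Psmg3 and Psmg4 form the other pair. Psmg3 was the member with an unadjusted p under 0.05 in the higher direction, with values of 4.79, 4.34 and 4.33 in the CD11c- and 5.09, 4.74 and 4.82 in the CD11c+ samples of mice A, C and D, none of them above background. Its log2 fold change was 0.40 (95% interval 0.054 to 0.74, adjusted p = 0.307), and it is not exact at that level. Psmg4 had 0.18 (95% interval -0.27 to 0.63, adjusted p = 0.719). Of the chaperones of the cap, Psmd5 had -0.47 (95% interval -1.29 to 0.34, adjusted p = 0.61) and Psmd9 -0.035 (95% interval -0.53 to 0.46, adjusted p = 0.949).

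By their brightest probe sets, all 4 genes of the activators and the inhibitor were lower in CD11c+ cells in 3 of 3 mice, and 3 of them without overlap. Their median log2 fold change was -0.33. Among all 44 genes, 15 were lower in 3 of 3 mice and 3 higher, or 34.1% and 6.82%, beside 26.4% and 11.3% of all probe sets. Among the 39 genes above background it was 15 and 2, or 38.5% and 5.13%, beside 27.8% and 18.4% of the probe sets above background. Of these probe sets, among which all 4 genes lie, 14.9% were lower without overlap, beside 12.5% of all probe sets. Psmf1, which encodes an inhibitor of the core, had log2 values of 7.88, 8.47 and 8.16 in the CD11c- and 7.40, 7.80 and 7.24 in the CD11c+ samples of mice A, C and D. The means were 7.48 ± 0.29 (SD, n = 3) in the CD11c+ and 8.17 ± 0.29 in the CD11c- fraction, and the log2 fold change of -0.69 (95% interval -1.10 to -0.29, adjusted p = 0.157) had the lowest p of all members (unadjusted p = 0.00769). Its other 3 probe sets, none above background, had -0.30, 0.52 and 0.17.

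Psme1 and Psme2 together form an activator that interferon γ induces. Psme1 had values of 9.96, 9.98 and 9.74 in the CD11c- and 9.91, 9.93 and 9.52 in the CD11c+ samples of mice A, C and D. They overlapped, with a log2 fold change of -0.11 (95% interval -0.45 to 0.24, adjusted p = 0.778). Psme2 had 9.42, 9.66 and 9.36 in the CD11c- and 9.18, 9.19 and 9.16 in the CD11c+ samples of mice A, C and D. The 3 CD11c+ values lay close together below all CD11c- values, with a log2 fold change of -0.30 (95% interval -0.66 to 0.065, adjusted p = 0.466). Psme3, the nuclear activator, had 10.08, 10.14 and 10.25 in the CD11c- and 9.91, 9.97 and 9.49 in the CD11c+ samples of mice A, C and D. The lowest of these was CD11c+ mouse D, and the log2 fold change was -0.37 (95% interval -0.85 to 0.12, adjusted p = 0.507), with -0.42 (adjusted p = 0.485) by its other probe set. By that other probe set, also above background, the groups overlapped and mouse A was higher by 0.043 in CD11c+ cells.

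**Figure D2:**
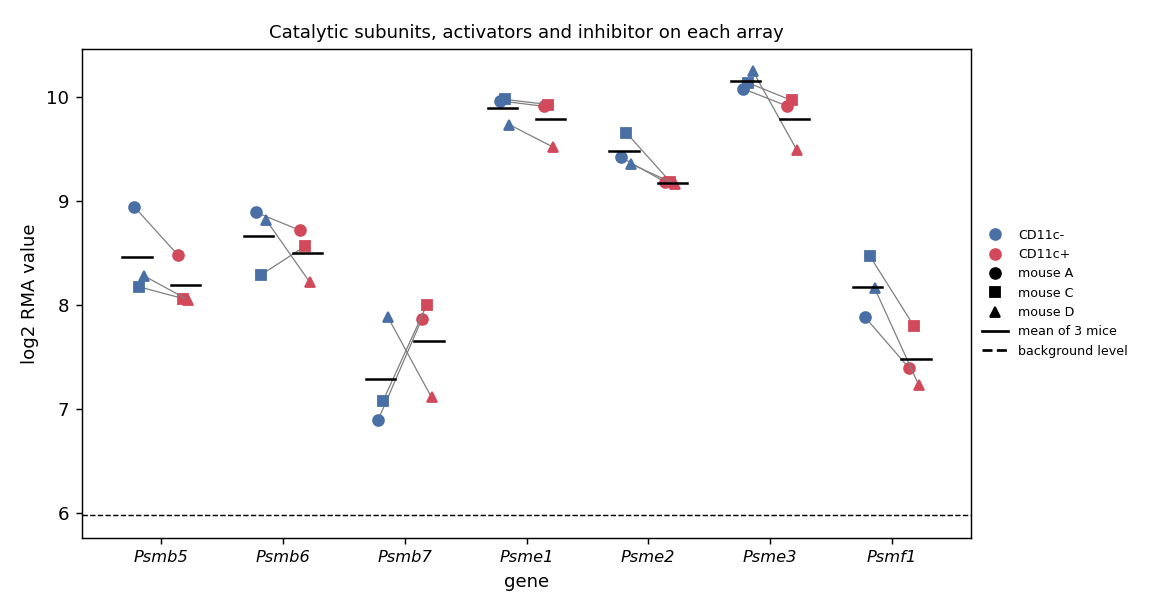
Log2 RMA values (vertical axis) of the catalytic subunits, the activators and the inhibitor Psmf1 (horizontal axis) by array (6 in all), coloured by fraction, with a marker shape per mouse, lines that join the fractions of a mouse, short bars for the means over 3 mice and the background of 5.98 as a dashed line. Psmf1, Psme2 and Psme3 have CD11c+ values below all CD11c- values, while Psmb7 is higher in CD11c+ cells in mice A and C and lower in mouse D.

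Psme3ip1, which encodes a protein that binds Psme3, had a log2 fold change of -0.086 (95% interval -0.65 to 0.48, adjusted p = 0.888), and Psmc3ip, not above background, one of 0.066 (95% interval -0.49 to 0.62, adjusted p = 0.916). Psma8 and Psmb11 had -0.0099 and -0.13 at means of 3.82 and 3.51.

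Between arrays, the CD11c+ sample of mouse D stood lowest for these genes. It held the lowest value of 18 of the 39 members above background, the other arrays 1 to 7 each, and its median deviation from the members' means was -0.19, beside -0.06 over all probe sets above background. The CD11c- sample of mouse D stood highest, with the highest value of 12 of the 39. Its median deviation was 0.12, beside 0.01 over all probe sets above background. Within mice the median log2 difference of those 39 genes was -0.06 in mouse A, -0.11 in mouse C and -0.27 in mouse D, and that of all probe sets above background between -0.08 and -0.07. Without mouse D, 18 members had a log2 fold change above 0 and 26 one below, in place of 12 and 32, and none passed the test. The median correlation was 0.13 between the deviations of member pairs from their group means over 6 arrays. The arrays and their normalization are shared by all members, so this is a description.

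**Figure D3:**
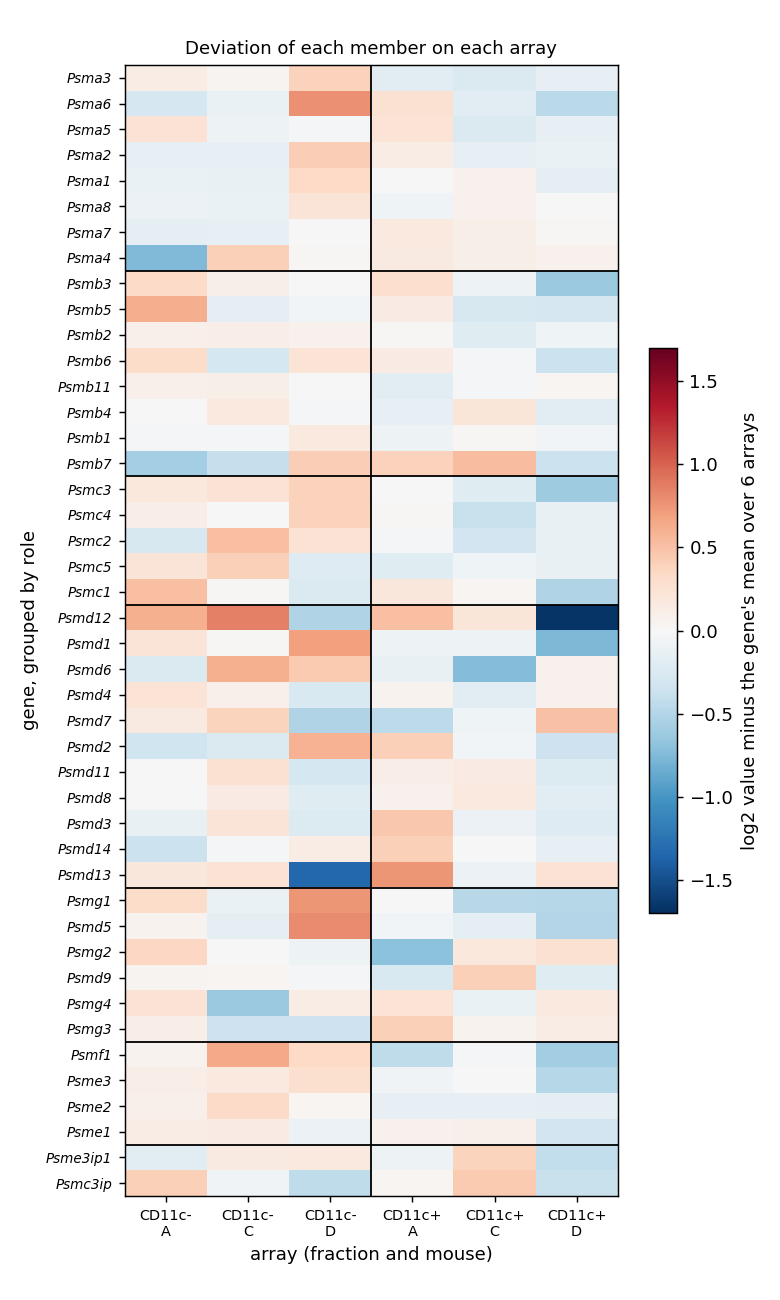
Deviation of each of the 44 genes (vertical axis, grouped by role, in the order of the log2 fold change) from its mean over the 6 arrays, in log2 units by colour, on each array (horizontal axis, fraction and mouse). The column of CD11c+ mouse D is bluest, holding the lowest value of 18 of the 39 genes above background.

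The immunoproteasome genes, left out of the members, did not pass the test either. Psmb8, the counterpart of Psmb5, had a log2 fold change of -0.11 (95% interval -0.54 to 0.33, adjusted p = 0.818), Psmb9, that of Psmb6, one of -0.21 (95% interval -0.57 to 0.16, adjusted p = 0.621), and Psmb10, that of Psmb7, one of 0.23 (95% interval -0.13 to 0.58, adjusted p = 0.574). By its other probe set above background Psmb9 had 0.31 (adjusted p = 0.608), so that its direction depends on the probe set. With the brightest probe set of each gene, the shift of the constitutive gene minus that of its counterpart was taken within each mouse. It averaged -0.16 ± 0.38 for Psmb5 and Psmb8, 0.04 ± 0.50 for Psmb6 and Psmb9, and 0.15 ± 0.88 for Psmb7 and Psmb10 (SD, n = 3 mice). Each mean was smaller than its SD over the mice, and these differences were not tested.

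Beside the members, 33 genes of the pathway were listed, with the 3 immunoproteasome genes among them. Of these 33, 0 were higher and 0 lower at an adjusted p under 0.05, against 0.957% and 0.168% of all probe sets. At an unadjusted p under 0.05, 4 were higher and 2 lower, where 6.28% and 7.21% of all probe sets were. Uchl5, a ubiquitin protease that docks on the cap, came closest, with values of 5.56, 5.76 and 6.00 in the CD11c- and 6.50, 6.97 and 7.23 in the CD11c+ samples of mice A, C and D. The CD11c+ values were all higher, with a log2 fold change of 1.13 (95% interval 0.75 to 1.50, adjusted p = 0.0578). Its CD11c- mean was not above background, the adjusted p was 0.0499997 with the mouse as a random block, and the mean of its 2 probe sets had 0.52 (adjusted p = 0.145).

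Zfand5, which encodes a proteasome-binding protein, had log2 values of 4.01, 3.60 and 3.30 in the CD11c- and 5.58, 4.44 and 5.04 in the CD11c+ samples of mice A, C and D, not above background in either fraction on average. Its log2 fold change was 1.38 (95% interval 0.79 to 1.98, adjusted p = 0.0954). Nfe2l2, the transcription factor of the oxidative stress response, had 4.07, 4.18 and 4.04 in the CD11c- and 4.80, 5.71 and 6.12 in the CD11c+ samples of mice A, C and D, also below background on average. The CD11c+ values were higher without overlap, with a log2 fold change of 1.45 (95% interval 0.67 to 2.23, adjusted p = 0.14), and by the mean of its 2 probe sets 0.51 (adjusted p = 0.479). Nfe2l1, the factor that raises subunit genes when proteasomes are impaired, was also not above background and had -0.24 (95% interval -0.73 to 0.24, adjusted p = 0.659). At the other end, Ubqln2, a shuttle for ubiquitinated proteins, had -0.70 (95% interval -1.10 to -0.31, adjusted p = 0.148), Faf1, an adaptor of the unfolding machinery, -0.52 (95% interval -1.30 to 0.25, adjusted p = 0.553), and Usp14, a ubiquitin protease of the cap whose mean was not above background, -0.88 (95% interval -3.76 to 2.01, adjusted p = 0.78). Pomp and Npepps were picked after their values were seen. Pomp, the maturation factor of the core, had 0.37 (95% interval -0.17 to 0.90, adjusted p = 0.544), and Npepps, an aminopeptidase that trims peptides, 0.59 (95% interval 0.21 to 0.98, adjusted p = 0.194).

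**Figure D4:**
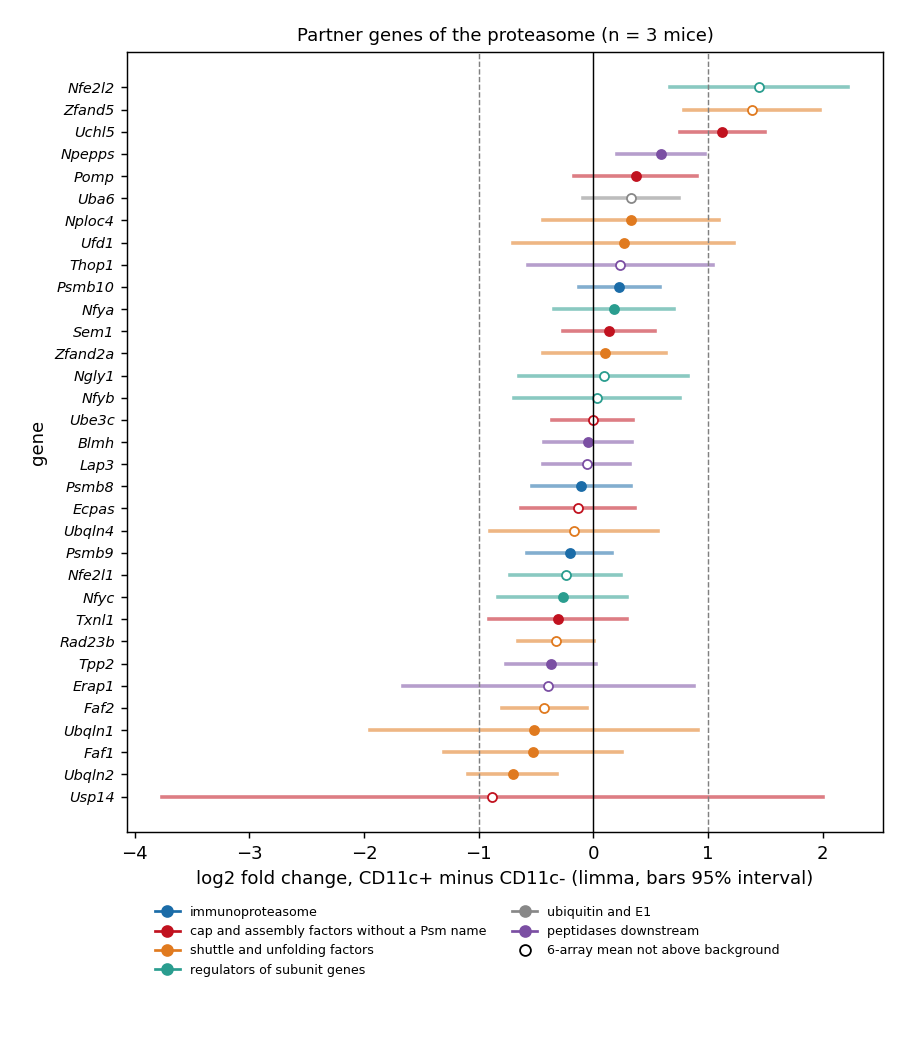
Log2 fold change (horizontal axis, CD11c+ minus CD11c-) of 33 partner genes of the proteasome (vertical axis, in order of size), coloured by list, with bars for the 95% interval from limma over 3 mice and open circles for a mean not above background. Nfe2l2, Zfand5 and Uchl5 lie past 1, none with an adjusted p under 0.05, and Usp14 has the widest bar.

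The scale of the comparison matters for these genes, since the arrays were brought to nearly equal distributions and the CD3 chains averaged 0.74 lower in CD11c+ cells. The chains were Cd3d, Cd3e, Cd3g and Cd247, with log2 fold changes of -0.58, -0.49, -0.69 and -1.19, so the size of the shift depends on including Cd247. With each array centred on the CD3 chains, all log2 fold changes move up by 0.74, the median of the members becomes 0.64, all 44 lie above 0 and 22 of 44 pass as higher, or 50%, beside 49.6% of all probe sets. Above background it is 18 of 39 members, beside 48% of the probe sets.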

How the data were processed

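RNA of 300 sorted cells per sample was hybridised to 6 arrays, and the authors deposited log2 values after RMA (background correction, quantile normalization and summary per probe set, as the submitters' notes name it), which makes the arrays' distributions nearly equal and hides a global shift. No depth applies to arrays, and the 3 mice limit the precision. Of 45141 probe sets, 28898 have 1 gene symbol in the platform annotation, 551 several and 15692 none. Another 104 control probe sets were left out. Differences were fitted with limma 3.58.1 in R 4.3.3 on all probe sets, two-sided, with the mouse as a fixed block (2 residual degrees of freedom), Benjamini-Hochberg adjustment over all of them and a threshold of 0.05. The fit was tested on simulated data. The pairing comes from the labels, in which both fractions of a pair are from 1 mouse. Deviations of the fractions of a mouse correlated at 0.122, 0.0758 and 0.109, and those of different mice between -0.086 and -0.022.

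Named were the catalytic subunits, the 3 largest rises and falls of each role group, members whose probe sets differ in sign, activators, inhibitor and genes taken by name, and of the partner genes the 3 largest rises and falls, the immunoproteasome genes and Nfe2l1. The members and lists were chosen with earlier results of these data known. Promoter motifs were searched on both strands. Alternatives were no block, a random block, averaging the probe sets of a gene, only probe sets above the median mean, cyclic loess, centring on the array median or on the CD3 chains, a trended robust variance, an adjusted p of 0.1 and leaving out each mouse.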

Additional observations from a re-analysis of the deposited data

How the results depend on the processing

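The counts of 0 members higher and 0 lower held under every alternative run except centring on the CD3 chains, also at an adjusted p of 0.1. The mouse block changed the call of no member: without it 0 members passed, the lowest adjusted p being 0.246 for Psmf1, and with a random block 0 passed, at 0.177. Leaving out mouse A, C or D gave 0 calls with a lowest adjusted p of 0.281, 0.372 and 0.17, but over all probe sets 0, 175 and 348 were then higher and 0, 2 and 44 lower. The medians of the members were -0.15, -0.14 and -0.055 without mice A, C and D, and -0.015 by cyclic loess. Role medians near 0 also turned sign: without 1 mouse that of the assembly chaperones ran from -0.29 to 0.18, of the alpha ring from -0.15 to 0.14 (0.0078 by cyclic loess), of the other cap subunits from -0.13 to 0.082 (-0.088 by the mean of the probe sets of a gene) and of the genes taken by name from -0.20 to 0.12 (0.066 by cyclic loess and 0.018 with arrays centred on their median). Those of the beta ring, the ATPases and the activators and inhibitor stayed below 0 in each alternative except centring on the CD3 chains.

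Centring on the CD3 chains adds the same amount to every log2 fold change. It gave 22 members higher, a median of 0.64, and medians of 0.66 for the alpha ring, 0.59 for the beta ring, 0.41 for the ATPases, 0.74 for the other cap subunits, 0.63 for the chaperones, 0.41 for the activators and inhibitor and 0.73 for the genes taken by name. Signs turned to log2 fold changes of 0.67 for Psma1, 0.65 for Psma2 and Psme3ip1, 0.36 for Psma3, 0.64 for Psma5, 0.49 for Psma6, 0.73 for Psma8, 0.66 for Psmb1 and Psmb4, 0.61 for Psmb11, 0.57 for Psmb2 and Psmb6, 0.46 for Psmb3, 0.47 for Psmb5 and Psmc5, 0.55 for Psmc1, 0.41 for Psmc2 and Psmc4, 0.19 for Psmc3, 0.12 for Psmd1, 0.098 for Psmd12, 0.70 for Psmd4 and Psmd9, 0.27 for Psmd5, 0.21 for Psmd6, 0.72 for Psmd7, 0.63 for Psme1 and Psmb8, 0.44 for Psme2, 0.37 for Psme3, 0.045 for Psmf1, 0.10 for Psmg1, 0.56 for Psmg2, 0.53 for Psmb9, 0.50 for Nfe2l1, 0.035 for Ubqln2 and 0.22 for Faf1. By cyclic loess, signs turned to 0.016 for Psma1, 0.073 for Psma8, 0.0056 for Psmb1, 0.0054 for Psmb4, 0.050 for Psmd4, 0.067 for Psmd7 and 0.039 for Psmd9. With arrays centred on their median, signs turned to 0.019 for Psma8 and 0.013 for Psmd7. By the mean of the probe sets of a gene, signs turned to -0.11 for Psmd11, -0.088 for Psmd2, 0.43 for Psmg2, -0.021 for Psmg4 and 0.0055 for Psmb9. Leaving out 1 mouse turned the sign of 18 genes, whose log2 fold changes ran from -0.20 to 0.14 for Psma1, -0.26 to 0.13 for Psma2, -0.13 to 0.47 for Psma4, -0.65 to 0.24 for Psma6, -0.10 to 0.10 for Psma8, -0.39 to 0.051 for Psmb6, -0.21 to 0.045 for Psmb8, -0.16 to 0.28 for Psmc3ip, -0.024 to 0.086 for Psmd11, -0.13 to 0.39 for Psmd14, -0.37 to 0.48 for Psmd2, -0.15 to 0.30 for Psmd3, -0.22 to 0.082 for Psmd4, -0.53 to 0.27 for Psmd7, -0.24 to 0.098 for Psmd9, -0.24 to 0.16 for Psme3ip1, -0.44 to 0.26 for Psmg2 and -2.44 to 0.17 for Usp14. Centring on the CD3 chains or on the array median moves every value by the same amount, which turns values that lay less than that amount below 0. The cause of the other turns was not tested. With 3 mice and 300 cells a sample, the width of the intervals limits what can be seen.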
